A study of Mus musculus with 12 samples.

Results

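Potassium channels that let cerebellar neurons fire fast were followed here in whole cerebellum of mice with a polyglutamine expansion in a calcium channel. The set comprises 9 genes: the Kv1 subunit genes Kcna1, Kcna2 and Kcna6, the Kv1 beta subunit gene Kcnab1, the Kv3 subunit genes Kcnc1, Kcnc2 and Kcnc4, the BK channel gene Kcnma1 and the SK channel gene Kcnn2. The members were chosen by name, and every array probe set that the annotation gives to 1 of these genes alone was taken, which is 26 of the 45101 probe sets on the array. A filter that removed the dimmest 40% of probe sets left 22 of the 26, out of 27060 tested in all. The 4 that were removed stayed near the bottom of the scale on all 12 arrays: 1442413_at of Kcna1 read 0.71 to 1.13, 1457911_at of Kcna2 0.39 to 0.89, and 1421568_at and 1441049_at of Kcna6 1.21 to 1.89 and 0.89 to 1.57. Each gene kept at least 1 tested probe set.

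The study profiled cerebellar total RNA of mice on a C57BL/6 background, aged 6 weeks, in 4 groups of 3 arrays. The knockin groups were homozygous, MPI 118Q/118Q and MPI 11Q/11Q, and carry an allele of Cacna1a, the gene of the P/Q-type calcium channel, with a tract of 118 or 11 glutamine codons. Each line had its own wild type littermates. The labels give 3 mice in each group and 1 array for each replicate, and do not say whether the lines were raised or hybridised at the same time, so line and any such batch cannot be told apart. Values are log2 expression, and because probe sets differ in how well they bind, levels were compared between groups and never between probe sets.

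As background, Kv1 channels open near the resting potential and restrain firing at axons and nerve terminals, and in the cerebellum the Kcna1 and Kcna2 subunits are concentrated in the terminals of basket cells around the Purkinje cell. Kv3 channels open only at strongly depolarised potentials and close quickly, which repolarises the spike and permits high firing rates. BK channels, whose pore is encoded by Kcnma1, need both depolarisation and calcium, and SK channels need calcium alone. In Purkinje cells both draw on calcium that enters through P/Q-type channels, the product of Cacna1a.

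Promoter sequences were looked up because 1 member, Kcnma1, was called in the 118Q knockin, and the aim was only to show how the stretches before these genes differ. RefSeq promoter windows in the build GRCm38.p6 covered 7 of the 9 genes with 12 start sites, and the 250 bases before each start were searched on both strands. Below are 30 bases from 3 genes, 5′ to 3′ on the strand of the gene, around the first GC box (GGGCGG or its complement, in capitals). Kcnma1 is shown because its probe sets were the lowest in the 118Q knockin, Kcnab1 because it had the smallest unadjusted p among the other members, and Kcnc1 because none of its probe sets passed the test.
Kcnma1, chr14:24004326-24004355, minus strand: gcccgggggaGGGCGGGCGGcggcgcttgg
Kcnab1, chr3:64949050-64949079, plus strand: catttcctctCCGCCCcaggaaactttaga
Kcnc1, chr7:46396258-46396287, plus strand: ctgggagcctCCGCCCaacaagtggagctc
In Kcnma1 the 2 GC boxes shown overlap, and its 250 bases held 3 in all, as did those of Kcnc1, while the first start of Kcnab1 had 2. A GC box was present before 5 of the 12 member starts, those of Kcnma1, Kcnc1 and Kcnc4 and the first of Kcnc2 and of Kcnab1, but not before Kcna2 or Kcna6, and before 32.7% of all 32841 start sites in the table. The G and C content of the 250 bases was 79.2% for Kcnma1 and 74.4% for Kcnc1, the 98.4th and 95.4th percentile of all starts, and 45.2% for Kcnab1, the 24.4th percentile. Kcnma1, which was called, and Kcnc1, which was not, thus had similar windows by this count. The letters AGGTCA, a core motif of ROR receptors, stood before 14% of all starts and TATAAA before 12.4%, and neither was in any of the 12 member windows. The letters CACGTG stood before 6.02% of all starts and before the other 2 starts of Kcnab1. A match is only a string of letters, not a site. The RefSeq gene models of Kcnma1 and Kcnc1 begin further upstream, so the stretches printed for both lie inside the gene's span, before the start the table gives and not before the outermost one.

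The first comparison asked how the 118Q knockin differed from its littermates. Kcnma1 was the member that fell: 2 of its 5 probe sets passed the test (limma, Benjamini-Hochberg adjusted p below 0.05 over all 27060 probe sets), at 2.97-fold and 2.15-fold lower, and no other member did. Of all tested probe sets 2.25% were called in either direction and 1.78% were called lower, against 2 of the 22 member probe sets. At an unadjusted p below 0.05 the members gave 8 of 22, 7 lower and 1 higher, beside 18% of all probe sets. The knockin arrays lay wholly outside the littermate arrays for 9 of 22, 8 lower and 1 higher, beside 21.6% of all. Over the brightest probe set of each gene the median difference was -0.16, where the median of all tested probe sets was 0.03.

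Kcnma1 encodes the pore and calcium sensor of the BK channel. Probe set 1440728_at read 3.37, 3.25 and 3.37 in the 118Q-line wild types and 2.21, 1.79 and 2.67 in the 118Q knockins. In the 11Q line the same probe set read 3.38, 3.37 and 3.56 in wild types and 3.33, 3.65 and 4.0 in knockins. All 3 of the 118Q knockins thus lay below the other 9 arrays, which ran from 3.25 to 4.0. This is a dim probe set: its 118Q knockin values lay around the array medians of 2.21 to 2.38, above the filter's cut of 1.58. A stricter filter that removed the lowest 60% of probe sets left it untested. The 118Q difference was -1.11 ± 0.21 (SE, 3 arrays against 3; adjusted p = 0.0168 by limma).

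Probe set 1428948_at of Kcnma1 read 4.23, 4.51 and 4.91 in the 118Q-line wild types and 3.63, 2.28 and 3.03 in the knockins. In the 11Q line it read 4.28, 4.25 and 4.68 in wild types and 3.65, 4.31 and 4.01 in knockins. Replicate 1 of the 118Q knockins was close to the lowest 11Q knockin, and replicates 2 and 3 were well below all others. Its 118Q difference was -1.57 ± 0.29 (adjusted p = 0.0175 by limma).

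The other 3 Kcnma1 probe sets did not pass. Probe set 1424848_at read 5.23, 5.20 and 5.29 in wild types of the 118Q line and 4.98, 3.85 and 4.13 in knockins, a difference of -0.92 ± 0.24 with limma's adjusted p at 0.0719. Its knockin arrays lay below the wild types without overlap, with replicate 1 only slightly below. The brightest, 1425987_a_at, read 5.37, 5.01 and 4.53 against 4.92, 4.31 and 4.25; here wild type replicate 3 fell among the knockins, and the difference was -0.48 ± 0.28 (limma, adjusted p = 0.403). Probe set 1457018_at read 1.41, 1.81 and 2.64 against 0.85, 0.68 and 0.68, which gave -1.22 ± 0.33 with limma's adjusted p at 0.0788. Its 118Q knockin values lie below the filter's cut on the mean over the arrays, 1.58, and it passed only through the other groups, so they are floor values and its difference and lack of overlap are given as a description only. It is among the members' 8 at an unadjusted p and 9 without overlap. Where on the transcript each probe set lies, and so which splice forms it reads, was not analysed here. Averaged over its 5 probe sets and fitted as 1 value for each gene, Kcnma1 was at -1.06 ± 0.17 on the log2 scale. That average takes in the floor values of 1457018_at, so it is a description only. The mean difference of the 4 other probe sets was -1.02, and the fit by gene was not run without 1457018_at.

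**Figure D1:**
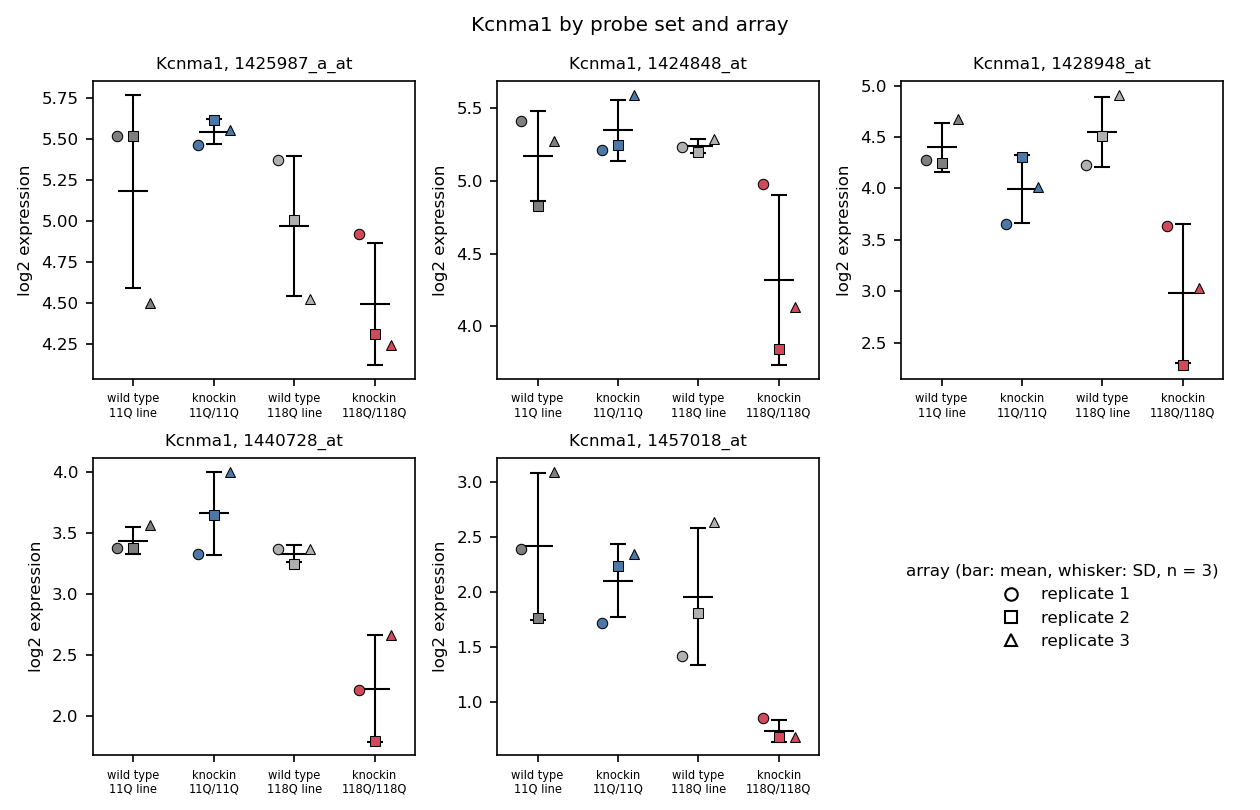
Log2 expression of the 5 Kcnma1 probe sets on each of the 12 arrays (points, shape by replicate number; bars, group mean; whiskers, SD of 3 arrays), in 4 groups on the x axis. In 1440728_at the 118Q knockins read 1.79 to 2.67 and lie below the other 9 arrays, while in 1425987_a_at they overlap the wild types of both lines.

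The 2 calls rested on few arrays. With wild type replicate 3 of the 118Q line left out, limma's adjusted p for Kcnma1 was 0.0866 for 1428948_at and 0.0709 for 1440728_at, and with knockin replicate 2 left out 0.0601 and 0.0682. Without wild type replicate 1 only 1428948_at of Kcnma1 passed (0.0420 against 0.0679), and without knockin replicate 3 only 1440728_at did (0.0125 against 0.0610). Knockin replicate 1 was the array nearest the wild types in the mean of the Kcnma1 probe sets, though replicate 3 was nearer in 1440728_at. Without replicate 1, 5 member probe sets passed: 3 of Kcnma1, 1 of Kcnab1 and 1 of Kcna6. Over all probe sets 1449 were called in that fit and 608 with all arrays. The differences themselves moved less. In 1428948_at of Kcnma1 they ran from -1.22 without knockin replicate 2 to -1.89 without knockin replicate 1. In 1440728_at they ran from -0.89 without knockin replicate 2 to -1.33 without knockin replicate 3.

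**Figure D2:**
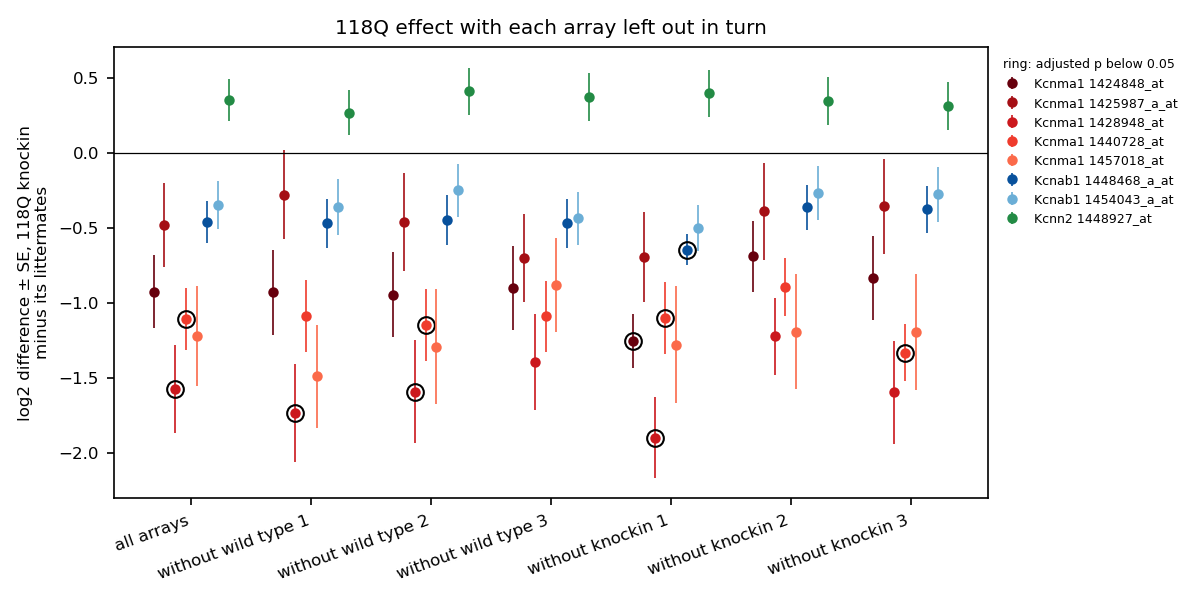
Difference between 118Q knockins and their littermates on the log2 scale ± SE (limma, y axis) for the probe sets of Kcnma1, Kcnab1 and Kcnn2, with all arrays and with each of the 6 arrays left out in turn (x axis); rings mark an adjusted p below 0.05. Kcnma1 and Kcnab1 lie below 0 and Kcnn2 above 0 in each of these 7 fits, while the rings come and go.

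Several measures of the arrays moved with Kcnma1. The array signal of 18S ribosomal RNA, a control probe set group, was 8.56 to 9.23 in the 118Q knockins, 9.66 to 10.3 in their littermates and 10.1 to 10.5 in the 11Q line. With this signal as a covariate the Kcnma1 differences were -0.93 ± 0.42 (1440728_at, adjusted p = 0.778 by limma) and -0.33 ± 0.45 (1428948_at, adjusted p = 0.918 by limma), and no member was called, nor was any of the 27060 probe sets. The 18S signal of the knockins did not overlap that of their littermates, so genotype and this signal cannot be told apart in the 118Q line. Genes of long span also read lower on the 118Q knockin arrays: across 22746 tested probe sets, the rank correlation of an array's deviation with gene span was -0.32 to -0.21 in the 118Q knockins and -0.04 to 0.06 in their littermates. It was 0.10 to 0.22 in the 11Q knockins and 0.16 to 0.20 in the 11Q-line wild types, so the lines differed in it as well. Kcnma1 spans 712823 bases, the 99.1st percentile, Kcnab1 429014 and Kcnn2 417138. The other 560 tested probe sets in genes of at least 400000 bases had a median difference of -0.14, with 4.46% called lower and 0 higher. After the trend with span was removed within each array, 1428948_at of Kcnma1 was at -1.39 (limma, adjusted p = 0.0192) and 1440728_at at -0.93 (0.0283).

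Markers of some cell types moved as well. Of 14 Purkinje cell markers 12 were tested, 11 lay below 0 in the 118Q knockin and 3 were called lower, namely Slc1a6 (-1.13 ± 0.20, adjusted p = 0.0147 by limma), Dner (-1.04 ± 0.23, 0.0369) and Car8 (-0.65 ± 0.15, 0.0462), with Pcp2 at 0.14 ± 0.12. Their summed linear level was 8163 to 10034 in the 118Q knockins, 10896 to 11670 in their littermates, 10165 to 11351 in the 11Q knockins and 10550 to 11011 in the 11Q-line wild types. Of 10 interneuron markers 8 were tested, all 8 lay below 0 with a median of -0.52, and none was called, while 5 had an unadjusted p below 0.05. Their summed level was 628 to 1320 in the 118Q knockins, 1257 to 1539 in their littermates and 1407 to 1622 in the 11Q line. The interneuron list includes Gad1 (-0.79), Gad2 (-0.37) and Slc32a1 (-0.74), which Purkinje cells also express. Its summed level therefore cannot be assigned to interneurons alone. The median of the granule cell markers was 0.01, that of the endothelial and mural markers -0.55 with Flt1, Abcb1a and Acta2 called lower, and that of the microglia markers 0.63 with Trem2 and Tyrobp called higher. The astrocyte and Bergmann glia, oligodendrocyte and choroid plexus markers had medians of 0.02, 0.13 and -0.18, with none called. Of 12 granule cell markers Etv1 had no probe set of its own and the other 11 were above the filter. So were all 10 astrocyte and Bergmann glia markers, so passing the filter does not check the cerebellum label. The part of these cell types in the Kcnma1 result was not tested. In whole tissue, fewer cells of a type and less RNA per cell cannot be told apart.

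**Figure D3:**
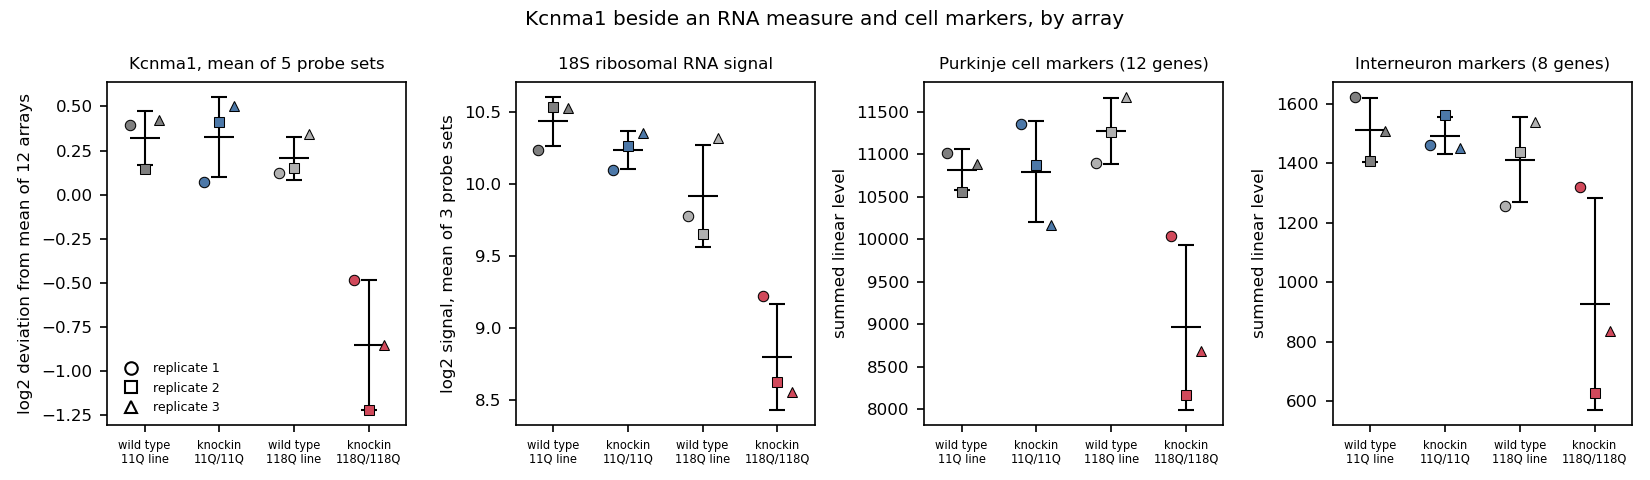
Values for each of the 12 arrays (points, shape by replicate number; bars, group mean; whiskers, SD of 3 arrays): the mean log2 deviation of the 5 Kcnma1 probe sets, the log2 signal of 18S ribosomal RNA, and the summed linear level of the tested Purkinje cell and interneuron markers. In the first 3 panels the 118Q knockins lie below their littermates, and in all 4 replicate 1 is the highest of the knockins. The Kcnma1 mean takes in 1457018_at, which is at floor values in the 118Q knockins. The interneuron markers include Gad1, Gad2 and Slc32a1, which Purkinje cells also express.

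Of the Kv1 group no probe set passed the test. Kcnab1 encodes a beta subunit that binds Kv1 channels and speeds their inactivation. Its brighter probe set, 1448468_a_at, read 7.72, 7.77 and 7.72 in the 118Q-line wild types and 7.65, 7.08 and 7.11 in the knockins. Replicates 2 and 3 were low and replicate 1 was just under the wild types, for a difference of -0.46 ± 0.14 (limma, adjusted p = 0.115). In 1454043_a_at of Kcnab1 the wild types read 4.61, 4.84 and 4.46 and the knockins 4.60, 4.13 and 4.14, which overlap, and the difference was -0.35 ± 0.16 (limma, adjusted p = 0.283). Without knockin replicate 1, 1448468_a_at of Kcnab1 was called, at -0.64 (adjusted p = 0.00789 by limma).

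Kcna6, another Kv1 pore subunit, read 4.71, 4.71 and 4.85 in the wild types of the 118Q line and 4.66, 4.10 and 4.29 in the knockins at its tested probe set 1456954_at. The groups did not overlap, with replicate 1 again near the wild types, and the difference was -0.41 ± 0.14 (limma, adjusted p = 0.148). Kcna2 is a Kv1 pore subunit of axons and terminals. Its probe set 1440759_at read 7.33, 7.34 and 8.07 against 7.27, 6.77 and 7.09, a difference of -0.54 ± 0.22 (limma, adjusted p = 0.218); the groups stood apart, but wild type replicate 3 was far above its fellows. The other tested probe sets of Kcna2 gave -0.10 ± 0.16 and -0.08 ± 0.16. Kcna1, the partner of Kcna2 in basket cell terminals, gave -0.16, -0.07 and 0.15 at its 3 tested probe sets, all with overlapping groups. For its brightest, 1455785_at, the 95% interval ran from -0.41 to 0.09.

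The Kv3 group showed no difference that passed. Kcnc1, the Kv3 subunit known for its abundance in granule cells, read 9.30, 9.23 and 9.62 in the 118Q-line wild types and 9.12, 9.36 and 9.26 in the knockins at its brightest probe set 1443855_at. These values were mixed, and the difference was -0.14 ± 0.13, with a 95% interval from -0.42 to 0.14. The other 3 Kcnc1 probe sets gave -0.02, 0.18 and 0.00. Kcnc4, another Kv3 subunit, gave 0.07 ± 0.11 at 1425090_s_at, whose suffix marks probes shared between transcripts, and 0.08 ± 0.17 at 1425089_at. Kcnc2, a Kv3 subunit of interneurons, was measured by 1 probe set, 1455258_at, at 2.86, 3.13 and 2.74 against 3.08, 2.72 and 2.63. Its difference was -0.10 ± 0.36 with a 95% interval from -0.88 to 0.68, so a change of up to about that size could not be detected here.

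Kcnn2 encodes the SK channel subunit of Purkinje cells. Its single probe set, 1448927_at, read 5.26, 5.55 and 5.46 in the 118Q-line wild types and 5.69, 5.79 and 5.86 in the knockins. All 3 knockins were above all 3 wild types, and the difference of 0.35 ± 0.14 did not pass (limma, adjusted p = 0.201). So the members whose channels depend on calcium stood on opposite sides of 0, Kcnma1 below and Kcnn2 above.

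**Figure D4:**
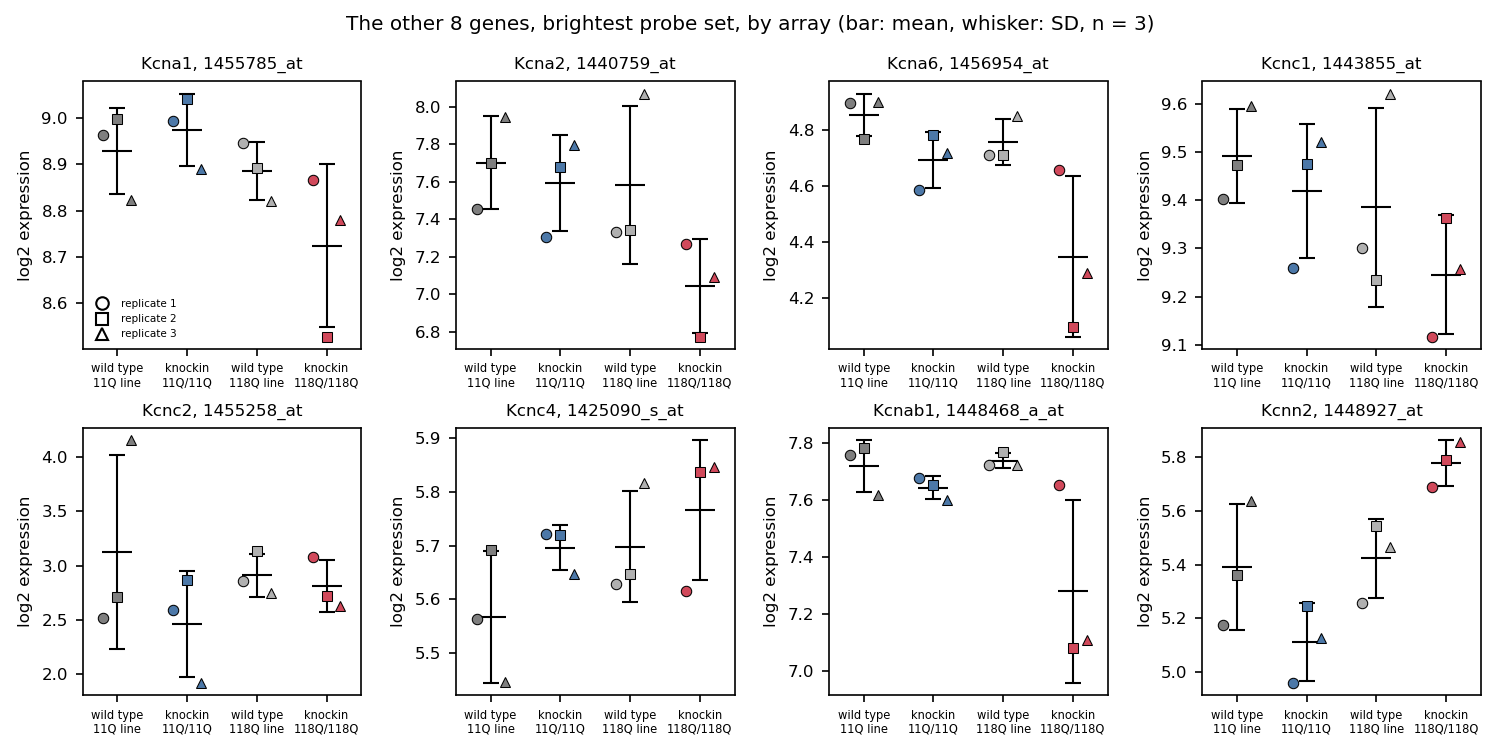
Log2 expression of the brightest probe set of each of the other 8 genes on the 12 arrays (points, shape by replicate number; bars, group mean; whiskers, SD of 3 arrays), in 4 groups on the x axis. Kcnn2 is highest in the 118Q knockins (5.69 to 5.86); Kcna6 and Kcnab1 are low in knockin replicates 2 and 3; and 1 wild type array of the 11Q line stands alone in Kcnc2 at 4.15.

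The second comparison asked whether the short-tract knockin differed from its own littermates. No member was called (limma), as was true of all 27060 probe sets (0% called, 3.53% at an unadjusted p below 0.05). Among the members 1 of 22 had an unadjusted p below 0.05, Kcnc4 at 1425089_at, with 3.99, 3.88 and 3.34 in wild types and 4.08, 4.24 and 4.07 in knockins. That difference was 0.40 ± 0.17 (limma, adjusted p = 0.978), and wild type replicate 3 was the array farthest from the rest. The Kcnma1 probe sets went both ways, at 0.36, 0.18, -0.41, 0.22 and -0.31, with overlapping groups in each. Kcnn2 was at -0.28 ± 0.14 and Kcnc2 at -0.67 ± 0.36, where wild type replicate 3 read 4.15 against 2.52 and 2.71 in its fellows.

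**Figure D5:**
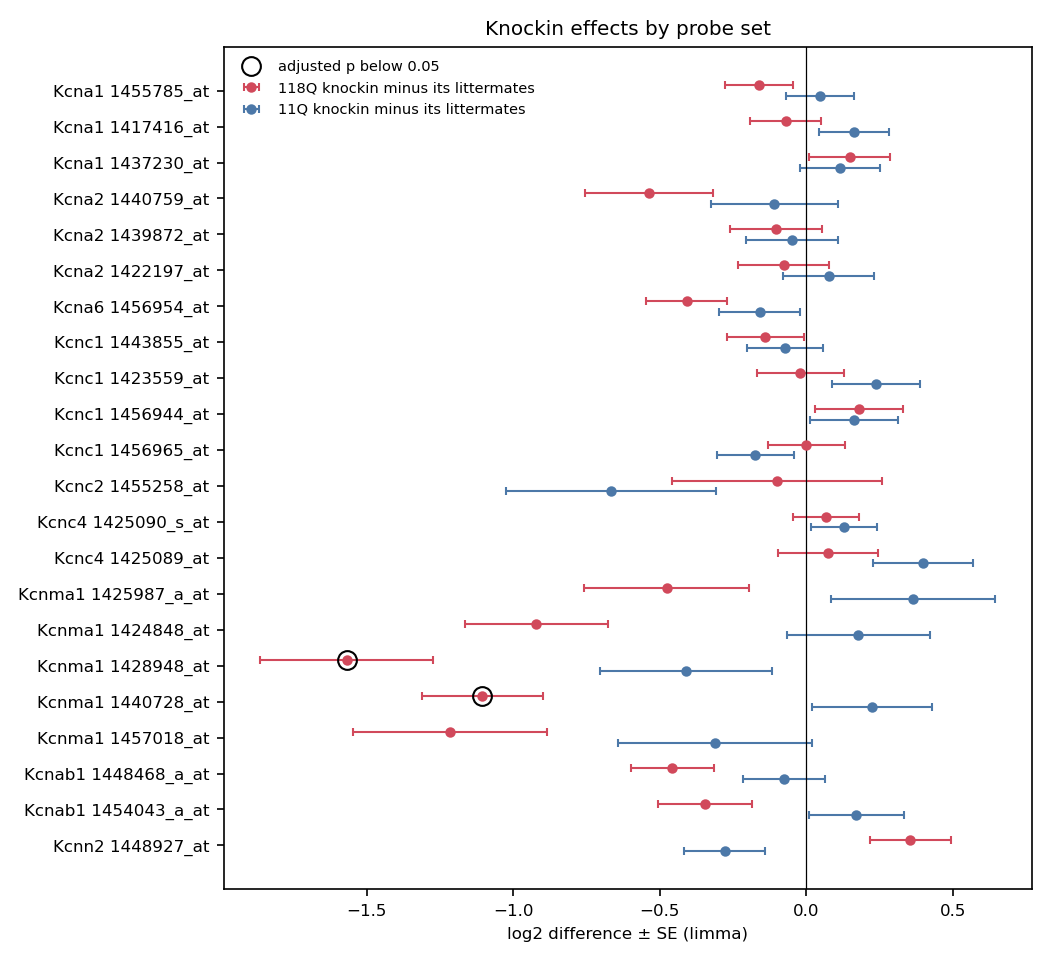
Differences between knockins and their own littermates on the log2 scale ± SE (limma, x axis) for the 22 tested probe sets (y axis), in the 118Q line (red) and the 11Q line (blue); rings mark an adjusted p below 0.05. The 5 Kcnma1 probe sets lie between -1.57 and -0.48 in the 118Q line and between -0.41 and 0.36 in the 11Q line; 1457018_at is at floor values in the 118Q knockins.

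The difference between these effects, which tests whether the 118Q knockin effect is unlike the 11Q one, passed for no member (limma). Over all probe sets 0.0961% were called, and 10.8% had an unadjusted p below 0.05, against 5 of the 22 member probe sets, 4 lower and 1 higher. The smallest adjusted p belonged to 1440728_at of Kcnma1, at -1.33 ± 0.29 (limma, adjusted p = 0.119), and Kcnn2 was at 0.63 ± 0.20 (limma, adjusted p = 0.256). With 118Q knockin replicate 1 left out, 1 member probe set was called, 1424848_at of Kcnma1 at -1.43 (limma, adjusted p = 0.0388). Over all probe sets 104 were called in that fit and 26 with all arrays. The low Kcnma1 level in 118Q mice was with all arrays not shown to differ from the 11Q effect.

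Set directly against the 11Q knockins, the 118Q knockins had lower Kcnma1 at 4 probe sets and higher Kcnn2. This comparison shares the 118Q knockin arrays with the first, so it is not a separate test of them. Of all probe sets 13.6% were called here, 6.47% lower and 7.14% higher, against 6 of 22 for the members, 5 lower and 1 higher. At these 4 probe sets the Kcnma1 differences ran from -1.44 ± 0.21 (1440728_at, adjusted p = 0.00142 by limma) to -1.01 ± 0.29 (1428948_at, adjusted p = 0.0395 by limma). The fifth, 1457018_at of Kcnma1, is among the 6 called, but with its 118Q knockins at floor values its difference of -1.37 ± 0.33 is a description only. With the trend with gene span removed, 6 were called, 4 of them shared, while calls over all probe sets went from 3684 to 2627. In that fit 1425987_a_at (-0.83, adjusted p = 0.0827 by limma) and 1428948_at (-0.80, 0.0757) of Kcnma1 lost the call, and 1417416_at and 1455785_at of Kcna1 gained it. Ttr, a choroid plexus marker, read 5.26 to 11.8 in the 11Q knockins and 8.66 to 11.8 in the 118Q knockins. With Ttr as covariate 5 were called, beside 2981 over all probe sets, and 1428948_at of Kcnma1 lost the call (adjusted p = 0.0745 by limma). Kcnn2 read 4.96, 5.25 and 5.13 in the 11Q knockins against 5.69, 5.79 and 5.86 in the 118Q knockins, a difference of 0.67 ± 0.14, or 1.59-fold (adjusted p = 0.00921 by limma). Kcna1 came next at 1417416_at with -0.36 ± 0.12 (limma, adjusted p = 0.0656).

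With single arrays left out, the direct comparison called 2 to 9 member probe sets, and 1440728_at of Kcnma1 and Kcnn2 passed in each of these 6 fits. Counts over all probe sets follow in parentheses, against 3684 with all arrays. The count was 2 without 11Q knockin replicate 3 (1795) or without 118Q knockin replicate 2 (1792) or 3 (1590). It was 3 without 11Q knockin replicate 2 (1806) and 9 without 118Q knockin replicate 1 (4525). With the 18S signal as covariate no member was called, nor was any of the 27060 probe sets: Kcnn2 was at 0.75 ± 0.35 (limma, adjusted p = 0.463) and 1428948_at of Kcnma1 turned to 0.58 ± 0.55 (limma, adjusted p = 0.697). The wild types of the 2 lines, a check on the lines themselves, had 0% of all probe sets called and 3.55% with an unadjusted p below 0.05. None of the 22 member probe sets met either mark (limma), and their differences ran from -0.46 to 0.23.

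Cacna1a, the targeted gene, was at -0.34 ± 0.16 in the 118Q knockin at its brightest probe set 1450510_a_at (limma, adjusted p = 0.288) and at -0.68 in the direct comparison of knockins (limma, adjusted p = 0.0155). The wild types of the lines differed at this probe set by -0.42 ± 0.16, in the same direction, which did not pass (limma, adjusted p = 1.00), and the difference of knockin effects was -0.26 ± 0.22 (limma, adjusted p = 0.722). The knockin alleles differ from each other in the length of the tract and do not remove the gene, so its level does not check the labels.

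The remaining genes of the same channel families were counted as well, from a list chosen with earlier results of these data known. Of 15 further genes of these families 12 had a probe set of their own and 7 passed the filter on dim probe sets. None was called in the 118Q knockin (limma, 1 of 7 at an unadjusted p below 0.05, beside 18% of all probe sets). Kcnmb4, the neuronal BK beta subunit that slows the channel and alters its calcium response, was at 0.27 ± 0.11 (limma, adjusted p = 0.211). In the direct comparison of knockins Kcnmb4 was higher by 0.40 ± 0.11 (limma, adjusted p = 0.0267), where Kcnma1 was lower. It was the only 1 of the 7 called there, beside 13.6% of all probe sets. The other tested family genes are given for the 118Q knockin against its littermates. The beta subunits Kcnab2 and Kcnab3 were at 0.21 and -0.03, the BK beta subunit Kcnmb2 at 0.14, the Kv1 subunit Kcna7 at 0.09, and Kcnn1 and Kcnn4 at -0.02 and 0.11. Kcna3, Kcna4, Kcna5, Kcnmb1 and Kcnn3 were too dim to test, and the rest were not analysed here.

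Transcripts of genes whose proteins place or anchor Kv1 channels were tested for 12 of 12 genes, and none was called in the 118Q knockin (limma, 5 lower and 1 higher at an unadjusted p below 0.05, beside 18% of all probe sets in either direction; median 0.07). The 4 with the smallest p were Adam23, a partner of LGI proteins, at -0.57 ± 0.14 (limma, adjusted p = 0.0611), Adam11, needed for Kv1 channels at basket cell terminals, at 0.55 ± 0.16 (limma, adjusted p = 0.107), the scaffold Dlg2 at -0.35 ± 0.11 (limma, adjusted p = 0.124) and the secreted Lgi2 at -0.67 ± 0.24 (limma, adjusted p = 0.160). In the direct comparison of knockins Adam22, Adam23, Dlg2 and Lgi2 were called lower and none higher, beside 6.47% and 7.14% of all probe sets. Of 40 other potassium channel genes 26 were tested and none was called in the 118Q knockin (limma, 2 lower and 3 higher at an unadjusted p below 0.05, against the same 18%; median 0.05). The leading 4 were the sodium-activated Kcnt1 at 0.37 ± 0.12, the silent subunit Kcns3 at 0.48 ± 0.17, and the A-type subunits Kcnd3 at -0.35 ± 0.13 and Kcnd2 at -0.27 ± 0.11. Between the knockins only 1 of the 26 was called, Kcnd3, which was lower (limma, adjusted p = 0.0112), beside 13.6% of all probe sets.

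The genes whose pattern over the 12 arrays was most like that of a member were found by Pearson's r at the brightest probe set, as a description; the arrays share the group structure above. For Kcnma1 they were Rora (r = 0.978, Spearman's rho 0.790), Jak1 (0.970) and Map1a (0.969). These were found with 1425987_a_at, which was not called in the 118Q knockin, and not with the 2 called Kcnma1 probe sets. Rora, Jak1 and Map1a were not called there either (limma, adjusted p = 0.319, 0.624 and 0.552). For Kcnab1 they were Eps8l2 (0.970), App (0.970) and Plekhd1 (0.967), and for Kcna6 Pcbp1 (0.982), Psd2 (0.970) and Strip2 (0.969). For Kcnn2, which moved the other way, they were Rab9 (0.971), Pip4k2a (0.967) and Cyc1 (0.966).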

How the data were processed

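Per the submitters' processing notes, the authors made the deposited log2 expression values with RMA (version and settings not given in the sources used here); per the labels' protocols, total RNA with an RNA integrity number greater than 5.0 was labelled by a one-cycle kit. Nothing was normalised again. The array annotation gave 1 gene symbol to 34958 probe sets, several to 932 and none to 9211. Probe sets with a mean of 1.58 or lower over the 12 arrays, the dimmest 40%, were removed. A group-means model was fitted to each of 27060 probe sets with limma 3.58.1 in R 4.3.3 (8 residual and 4.58 prior degrees of freedom; array median 2.21 to 2.38, correlations between arrays 0.980 to 0.995), and tests were two-sided over 5 comparisons. Calls needed an adjusted p below 0.05 after Benjamini and Hochberg. With 3 arrays in a group, their number limits the precision. The fit was checked on simulated data. A gene is described by its brightest probe set with the others beside it. For related lists, all tested family genes and up to 4 genes of the others by smallest p were named, and markers that were called were named after their values were seen. The members and lists were chosen with earlier results of these data known. Gene spans and promoters are from RefSeq, GRCm38.p6. The series names limma for its own tests.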

Additional observations from a re-analysis of the deposited data

Results flagged for a closer look

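In 4 of the 22 member probe sets every knockin array of one line stood on the opposite side of its littermate mean from every knockin array of the other line, as in 9.87% of all 27060 probe sets (2671). They were 1424848_at of Kcnma1, with a difference of effects (118Q minus 11Q) of -1.10 ± 0.34 (limma, adjusted p = 0.265), 1425987_a_at of Kcnma1 at -0.84 ± 0.40 (limma, adjusted p = 0.473), 1454043_a_at of Kcnab1 at -0.52 ± 0.23 (limma, adjusted p = 0.443) and 1448927_at of Kcnn2 at 0.63 ± 0.20 (limma, adjusted p = 0.256). The test of the difference passed for none of the 4. Groups of 3 arrays are too small for a check of single outlying arrays.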

How the results depend on the processing

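For each comparison of one group with another 22 alternatives were run, and 28 for the difference of effects. Counts over all probe sets tested follow each count of member probe sets in parentheses. In the 118Q effect, where 2 were called (608), the count was 1 with the lowest 60% of probe sets removed (669), 0 with 1 probe set per gene (24), 1 with each gene's probe sets averaged (18), 9 with array weights (5973), 0 with only the groups compared (113), 4 at an adjusted p below 0.1 (1314), 4 where an unadjusted p below 0.05 and a 1.5-fold change sufficed (1246), 0 with the 18S covariate (0), 0 without wild type replicate 3 of both lines (178), and 0 to 5 with single arrays left out (144 to 1449). For knockin against knockin, where 6 were called (3684), it was 2 with 1 probe set per gene (1732), 2 with them averaged (1678), 14 with array weights (13434), 0 with the 18S covariate (0) and 2 to 9 with single arrays left out (1590 to 4525). For the difference of effects, where 0 were called (26), it was 6 with array weights (1440), 4 at the unadjusted p with the fold (1474), and 0 to 1 with single arrays left out (0 to 156). The 11Q effect and the wild types gave 0 in all 22. The averaged fits take in 1457018_at of Kcnma1, at floor values in the 118Q knockins, so their Kcnma1 calls are a description only. Array weights trust arrays unequally, and the cause of the gain was not tested. The replicate number as a block left the calls as they were (2, 6 and 0); same-numbered arrays of a line correlated in their deviations at 0.21, -0.16 and 0.06 (11Q) and -0.08, -0.09 and 0.02 (118Q), so the numbers were not taken as pairs. Signs turned as follows, the cause not tested. In the 118Q effect, 1423559_at of Kcnc1 was at 0.0053 with arrays centred, at 0.0022 with array weights, and between -0.16 and 0.094 with single arrays left out; 1456965_at of Kcnc1 was at 0.025 with arrays centred, 0.028 with quantile normalization, 0.0010 without wild type replicate 3 of both lines, and between -0.11 and 0.074 with single arrays left out. With the 18S covariate the 118Q effect was -0.41 for 1425089_at of Kcnc4, -0.039 for 1437230_at of Kcna1, 0.38 and 0.49 for 1439872_at and 1440759_at of Kcna2, 0.096 for 1443855_at of Kcnc1, 0.19 for Kcnc2 and 0.053 for Kcna6. With single arrays left out Kcnc2 ran from -0.24 to 0.0097 and 1425089_at of Kcnc4 from -0.060 to 0.20, the latter also -0.060 without wild type replicate 3 of both lines. In the 11Q effect 1457018_at of Kcnma1 ran from -0.64 to 0.028, and was 0.028 without wild type replicate 3 of both lines. Between the knockins, the 18S covariate gave 0.58 for 1428948_at of Kcnma1 and 0.11 for 1448468_a_at of Kcnab1.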
